A study of Mus musculus with 20 samples.

Results

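Atrx, Golm2, Nedd4, Rlf, Pnmal2, Gmfb, Nhsl2, A830010M20Rik and Rab22a are genes for which the probe sets of one array gave different answers in HDAC4 KO mouse brains: a probe set that read lower than in WT stood beside another that barely moved. They were selected on their signals in the genotype comparison itself, so their genotype differences are given as a description, without a test. The 9 genes, of 18193 that the array annotation names, are read by 32 of the 45037 probe sets, and all 32 are described. Affymetrix mouse genome arrays were hybridized with RNA of whole brains at postnatal day 3, 10 arrays from WT pups and 10 from HDAC4 KO littermates. Both genotypes came from a colony in which heterozygous males were backcrossed to B6CBAF1/OlaHsd females, which are F1 hybrids, so the background was mixed. Both were untreated, with 5 males and 5 females each by the labels. The knock-outs were homozygotes obtained by intercrossing, and the sources used here do not say which part of Hdac4 the allele removes. The methods give 5 brains per sex and genotype, so the arrays of a genotype are taken as separate brains.

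On this platform a probe set is a group of short probes that reads one stretch of a transcript, usually near its 3′ end, and a gene can have several. Probe sets of one gene can therefore read different ends, splice forms or intronic sequence. HDAC4, the protein missing from the knock-outs, is a class IIa histone deacetylase that binds transcription factors of the MEF2 family. The 9 genes belong to no single pathway. Atrx and Rlf encode nuclear proteins, Nedd4 a ubiquitin ligase, Golm2 and Rab22a proteins of the membrane traffic system, Gmfb and Nhsl2 proteins linked to the actin cytoskeleton, and Pnmal2 a member of the paraneoplastic antigen family. A830010M20Rik carries no function in the array annotation. Signals are log2 values, and those of different probe sets share no scale, so a brighter probe set does not mean more RNA. Differences are taken between arrays at one probe set, and brightness is given only as a rank of signal. In whole brain, a lower signal from fewer cells of a type and one from less RNA per cell cannot be told apart.

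Hdac4 read lower in the HDAC4 KO arrays at its 3 probe sets, with differences of −1.39, −1.19 and −0.46 on the log2 scale, and at the first 2 every HDAC4 KO array lay below every WT array. WT replicate 8 and HDAC4 KO replicate 10 almost met at the second, at 7.36 and 7.35. At the first probe set HDAC4 KO replicate 10 read 7.43 and the other HDAC4 KO arrays 6.02 to 6.59. Sex-linked signals disagreed with the labelled sex in 3 arrays, whose labels were kept. In WT replicates 5 and 9 both Xist and Kdm5d went against the label. HDAC4 KO replicate 10, labelled male, carried both signals, with Kdm5d at 6.88 (1424903_at) and Xist at 9.83 (1427262_at). Neuronal, astrocytic and oligodendrocyte markers lay above the array median in every array (6 of 6, 5 of 5 and 5 of 5). Of 36 measured markers of 8 cell types, 1 passed the test between genotypes, beside 1.96% of all genes. It was the choroid plexus marker Ttr, with a difference of −0.14 (SE 0.03). The 4 choroid plexus markers had a median difference of −0.15, from −0.30 to 0.03. The 4 microglia markers had a median of 0.10, from −0.04 to 0.21. The medians of the other lists lay between −0.05 and 0.08.

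For each gene the lowered probe set is the one with the most negative difference among those below an adjusted p of 0.05, or the most negative of all where none passed, and the comparison probe set is the brightest of the rest. Of the 32 probe sets 9 were called lower, in 8 genes, beside 1.01% of all probe sets called lower and 2.06% called either way, and none was called higher. The rule for the genes used this contrast, so nothing is read from that count. The 9 lowered probe sets differed by −1.32 to −0.44 on the log2 scale, which is 26.3% to 59.9% lower on the linear scale. The 9 comparison probe sets of the same genes differed by −0.03 to 0.08. The groups overlapped at each of these 18 probe sets, and over the whole array they were separate, with HDAC4 KO below WT, at 0.0333% of probe sets.

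**Figure D1:**
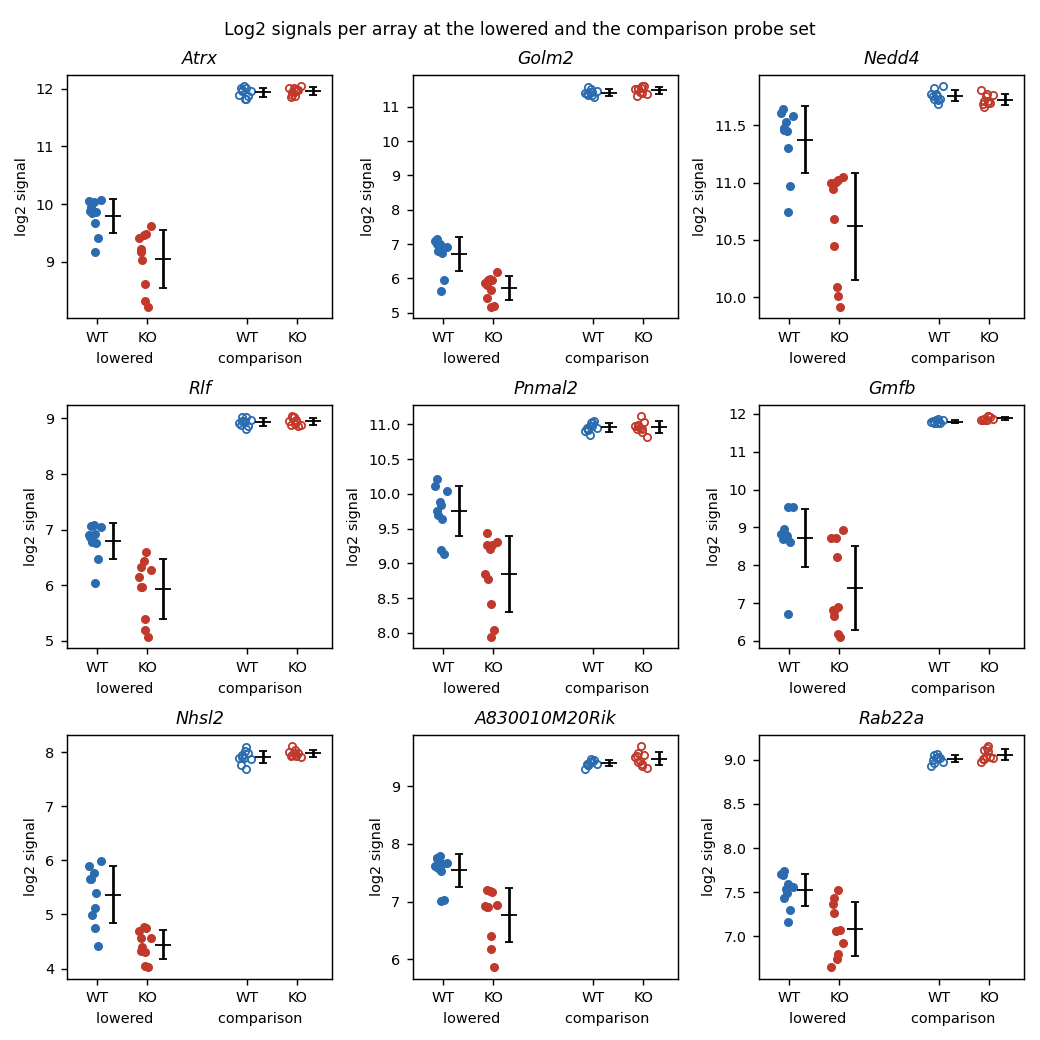
Log2 signal (y axis, a separate scale for each gene) of the 10 WT (blue) and 10 HDAC4 KO (red) arrays at the lowered (filled) and the comparison probe set (open) of each gene, with the mean and SD beside each group. The HDAC4 KO points sit lower at the lowered probe sets only, and the comparison probe sets show differences of −0.03 to 0.08.

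Atrx encodes a chromatin remodeller that places the histone variant H3.3 together with DAXX, and it lies on the X chromosome. It is the gene with the most probe sets, 7, and they form a series. At 1450051_at the WT signals had a lowest value of 9.17, a median of 9.87 and a highest value of 10.08, against 8.21, 9.19 and 9.62 in HDAC4 KO brains, a difference of −0.74 (SE 0.17). A further 2 probe sets were lower by less, 1420947_at with −0.54 (SE 0.14) and 1420946_at with −0.39 (SE 0.13). The remaining 4 lay between −0.11 and 0.02, and the brightest of all, 1433537_at, ran from 11.81 to 12.04 in WT and from 11.85 to 12.05 in HDAC4 KO brains. So 8 of 10 WT arrays exceeded every HDAC4 KO array at 1450051_at and none did at 1433537_at.

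Rlf encodes a zinc finger protein of the nucleus. Its probe set 1439555_at had 6.04, 6.89 and 7.09 as the lowest, median and highest WT signal and 5.06, 6.06 and 6.60 in HDAC4 KO brains. The difference was −0.86 (SE 0.18), with 8 WT arrays above all HDAC4 KO arrays. Neither of its other probe sets followed: 1427171_at differed by 0.01 (SE 0.03) and 1446057_at by −0.04 (SE 0.05).

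Nedd4 encodes a HECT-type E3 ubiquitin ligase that marks membrane proteins for uptake. The bright probe set 1421955_a_at ran from 10.75 to 11.64 in WT brains, with a median of 11.46, and from 9.92 to 11.05 in HDAC4 KO brains, with a median of 10.82. That is a difference of −0.76 (SE 0.16), and again 8 WT arrays lay above the HDAC4 KO range. At 1451109_a_at the difference was −0.17 (SE 0.05), and at 1450431_a_at it was −0.03 (SE 0.03), with medians of 11.75 and 11.71. The Nedd4 probe sets thus formed a graded series, as those of Atrx did.

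Golm2, also called Casc4, encodes a Golgi membrane protein related to GOLM1, and it had the largest difference among the genes with a called probe set. At 1440248_at the WT signals were 5.63, 6.87 and 7.15 at the lowest, median and highest array, and those of HDAC4 KO brains 5.16, 5.84 and 6.20, a difference of −0.99 (SE 0.18). The other probe set, 1433779_at, differed by 0.07 (SE 0.04), with medians of 11.42 and 11.51. At 1440248_at 2 WT arrays fell among the HDAC4 KO values and 8 lay above them.

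Rab22a encodes a small GTPase of early endosomes. It had the smallest difference of the lowered probe sets, −0.44 (SE 0.11) at 1424504_at. There the WT arrays had 7.16, 7.55 and 7.75 as lowest, median and highest signal and the HDAC4 KO arrays 6.65, 7.07 and 7.52. Its 3 other probe sets lay on the other side of 0, at 0.03 to 0.07.

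Gmfb encodes glia maturation factor beta, a protein of the ADF/cofilin family that acts on branched actin. It had the largest difference and the widest spread. Its probe set 1431686_a_at had a lowest, median and highest WT signal of 6.71, 8.78 and 9.54, against 6.09, 6.85 and 8.92 in HDAC4 KO brains. The difference was −1.32 (SE 0.39), and 2 further probe sets read alike, 1417069_a_at with −1.31 (SE 0.36) and 1448571_a_at with −1.10 (SE 0.30). None of the 3 passed the threshold. The brightest Gmfb probe set, 1448570_at, differed by 0.08 (SE 0.03), and the dimmest, 1431687_at, by −0.05 (SE 0.05).

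Nhsl2, an X-linked gene of the Nance-Horan syndrome family, was read dimly. At 1438732_at the WT arrays had 4.42, 5.52 and 5.99 as lowest, median and highest signal, and the HDAC4 KO arrays 4.02, 4.48 and 4.77, a difference of −0.92 (SE 0.17). The other 2 probe sets differed by 0.07 (SE 0.04) and 0.05 (SE 0.04). The lowered probe set ranks at percentile 31.1 of mean signal over all probe sets, the lowest of the 9.

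Pnmal2 is a gene of the paraneoplastic antigen Ma-like family. Its probe set 1438363_at ran from 9.14 to 10.21 in WT brains, with a median of 9.80, and from 7.94 to 9.43 in HDAC4 KO brains, with a median of 9.03. The difference was −0.90 (SE 0.19). At 1435960_at it was 0.00 (SE 0.03), with medians of 10.95 and 10.96.

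A830010M20Rik, which the RefSeq gene table lists as a synonym of Btbd8, had signals of 7.01, 7.64 and 7.79 in WT and 5.86, 6.92 and 7.20 in HDAC4 KO brains at 1438565_at, for the lowest, median and highest array. The difference was −0.78 (SE 0.16). Its other probe sets differed by 0.08 (SE 0.04) and 0.05 (SE 0.10).

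In the order of the adjusted p that chose the members, Atrx 1420947_at, with a difference of −0.54, lay just inside the threshold. Just outside it were Gmfb 1448571_a_at (−1.10), Gmfb 1417069_a_at (−1.31) and Nedd4 1451109_a_at (−0.17). Without WT replicate 8 and HDAC4 KO replicate 10, the 2 arrays between the genotypes at Hdac4, 3 of the 32 probe sets were called, those of Golm2, Nhsl2 and A830010M20Rik. Without the 3 arrays at odds with their labelled sex 10 were called. These counts, like the 9, describe the contrast that chose the genes.

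**Figure D2:**
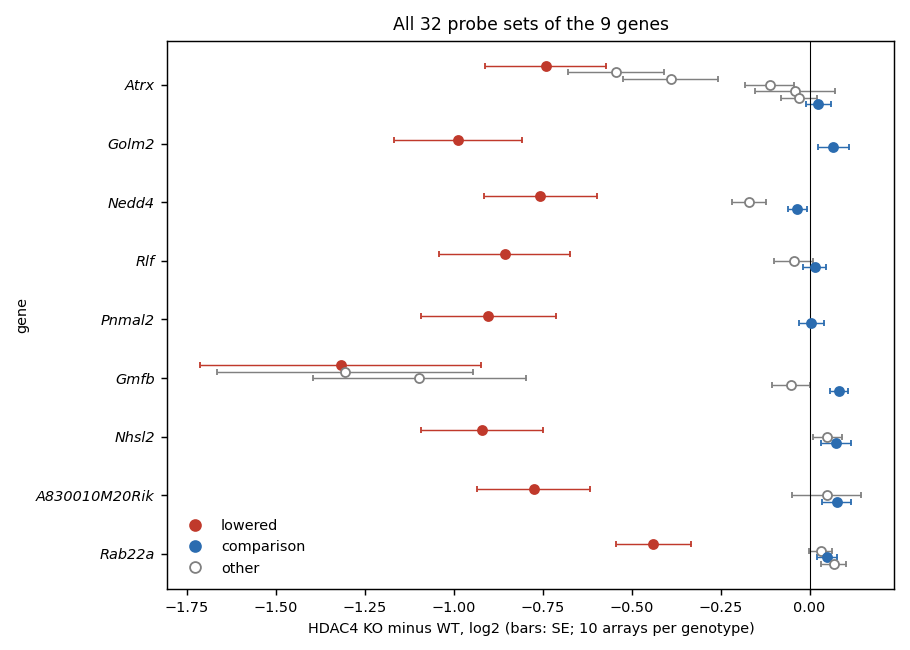
HDAC4 KO minus WT difference in log2 signal (x axis, bars are SE, 10 arrays per genotype) of all 32 probe sets, by gene. The lowered probe sets (red) lie between −1.32 and −0.44 and the comparison probe sets (blue) between −0.03 and 0.08. The 14 others (open) lie between −1.31 and 0.07, and those farthest below 0 belong to Gmfb, Atrx and Nedd4.

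The lowered probe sets varied far more between arrays of one genotype than the comparison probe sets did. Their SD within genotype was 0.253 to 0.963, with a median of 0.417, and the comparison probe sets had 0.0416 to 0.0966, with a median of 0.0719. Over all probe sets the quartiles of this SD were 0.0898 and 0.155 and the median 0.121. Every lowered probe set therefore lay above the 95th percentile of spread, and every comparison probe set below the 31st. Choosing the most negative difference as lowered favours a wide spread, and how far it made this contrast was not tested. By mean signal the lowered probe sets ranked between percentiles 31.1 and 95.2 of the array and the comparison probe sets between 69.7 and 98.0. The lowered one was the dimmer in 9 of 9 genes, an order that choosing the brightest as comparison favours, and its part in the result was not tested.

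The same arrays were high and low at gene after gene. Averaged over the 9 lowered probe sets, WT replicates 1 to 8 had log2 signals of 8.17 to 8.49, while WT replicate 10 had 7.70 and WT replicate 9 had 7.38. HDAC4 KO replicates 1 to 7 had 7.28 to 7.76, and replicates 8, 9 and 10 had 7.02, 6.72 and 6.61. WT replicates 9 and 10 thus lay in the range of the HDAC4 KO arrays, and in the 7 genes other than Gmfb and Rab22a they are the only WT arrays that overlapped with the HDAC4 KO group. The comparison probe sets averaged 10.3 to 10.4 in all 20 arrays.

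**Figure D3:**
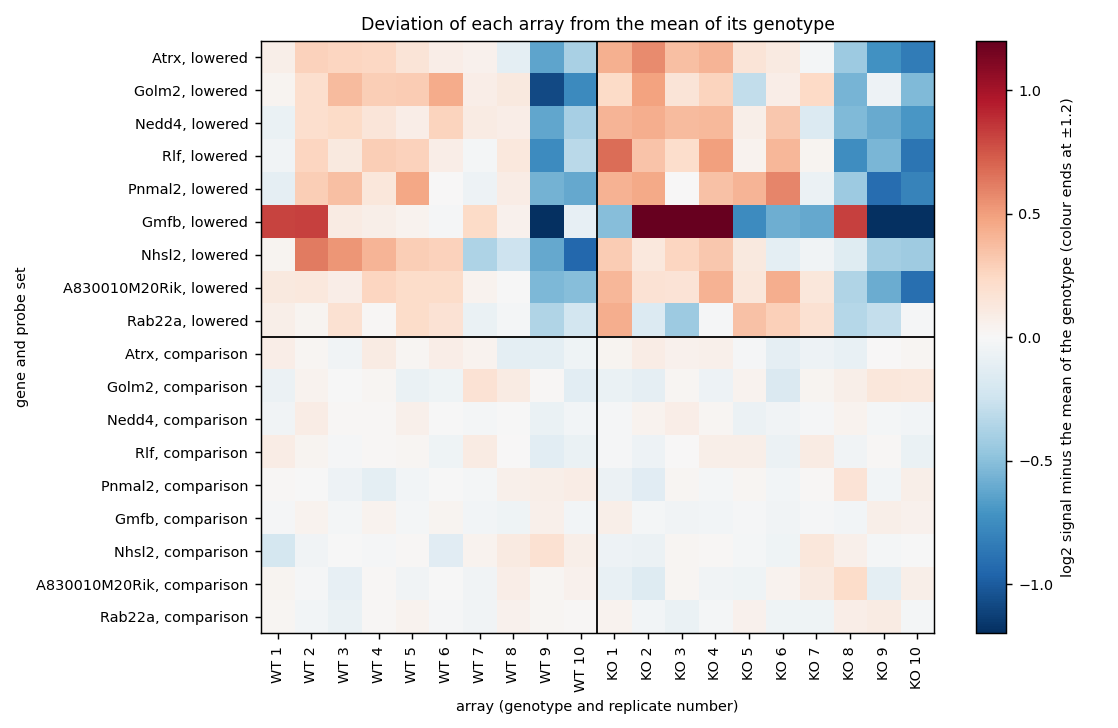
Log2 signal minus the mean of the array's genotype (colour, ending at ±1.2) at the 9 lowered (upper rows) and 9 comparison probe sets (lower rows) in the 20 arrays (x axis). WT replicates 9 and 10 and HDAC4 KO replicates 8 to 10 are low at most lowered probe sets, Gmfb has a pattern of its own, and the comparison probe sets stay near 0.

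This common movement lies within the genotypes, while the genes were chosen on the difference between them. That choice is not independent of the movement. The 444 other probe sets called lower had a median correlation of 0.612 with the mean deviation of the 9, against −0.06 over all probe sets of other genes. How far the choice raised the correlations below was not tested. Over the 36 pairs of lowered probe sets the median Pearson correlation was 0.861 across the 10 WT arrays, with a range of 0.506 to 0.980, and 0.740 across the 10 HDAC4 KO arrays, with a range of −0.497 to 0.970. Pairs of comparison probe sets had medians of −0.10 and 0.03. The correlation rested in part on the low arrays: without WT replicates 9 and 10 the WT median was 0.482 with 30 of 36 pairs positive, and without HDAC4 KO replicates 9 and 10 the HDAC4 KO median was 0.586 with 32 of 36 positive. These arrays share a normalization, so the values are a description with no p. Pooled over the genotypes the median was 0.727, and with the replicate number as a block it was 0.154.

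Of the 9, Atrx, Golm2, Nedd4, Rlf, Pnmal2, Nhsl2 and A830010M20Rik moved most closely, with a median pair correlation of 0.884 in WT and 0.897 in HDAC4 KO brains over their 21 pairs. Gmfb and Rab22a stood apart in the HDAC4 KO brains, where their median correlation with these 7 was 0.432 and 0.301, and with each other −0.50. Within a gene the lowered and the comparison probe set moved alike in some genes and oppositely in others. Over the 9 genes their correlation ran from −0.71 (Pnmal2) to 0.68 (Atrx) in WT brains, with a median of −0.22, and from −0.66 to 0.39 in HDAC4 KO brains, with a median of −0.11. For comparison, the 2 brightest probe sets of all 9010 genes with several had median correlations of 0.234 and 0.236.

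Many other probe sets on the array followed the same arrays. After subtracting each genotype's mean, the 5 genes outside the 9 with the highest correlation to the mean of the 9 lowered probe sets over 20 arrays were Sec22c (0.956), Xiap (0.949), Pfkp (0.947), Secisbp2l (0.944) and Ttc14 (0.942). Without WT replicate 9 and HDAC4 KO replicate 10, the arrays farthest from the median, these were 0.888 to 0.940. These probe sets of Sec22c, Xiap and Secisbp2l were called lower and those of Pfkp and Ttc14 were not, with differences of −0.63 to −0.31 over the 5. The brightest probe set of each gene was another one, was not called and differed by −0.10 to 0.14. Of the 45005 probe sets of other genes 1.13% had a correlation above 0.8, with a median over all of −0.06. Of the 444 others called lower 114 did, with a median of 0.612, and the 474 called higher had a median of −0.35. As the 5 were picked for likeness among all, no p is given.

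Gmfb differed from the others in having separate levels. At 1431686_a_at 7 arrays read 6.09 to 6.89, namely WT replicate 9 and HDAC4 KO replicates 1, 5, 6, 7, 9 and 10, and the next value was 8.22. Another 11 arrays ran from 8.22 to 8.95, and WT replicates 1 and 2 stood at 9.53 and 9.54. The low level thus held 6 of 10 HDAC4 KO and 1 of 10 WT arrays. Of these, HDAC4 KO replicates 1, 5, 6, 7 and 9 were labelled female, and replicate 10, labelled male, carried Xist. The HDAC4 KO arrays outside the low level were all labelled male. WT replicate 9 was labelled female against its sex-linked signals, and the other WT arrays labelled female were not low. What these levels stand for was not tested.

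The same 7 arrays were the lowest at 1417069_a_at, with 7.23 to 8.15 against 9.14 to 10.56 in the rest, and at 1448571_a_at, with 6.07 to 6.64 against 7.60 to 8.91. At the brightest Gmfb probe set they were none of the lowest 7, and tended to read slightly higher, with 11.84 to 11.95 against 11.75 to 11.86. They were also the lowest at 2 probe sets of Samd4, which encodes an RNA-binding protein and lies 2 genes away in the RefSeq gene order. At Samd4 1436356_at they read 7.45 to 7.72 against 8.20 to 8.52, and at 1429449_at 4.57 to 5.32 against 5.73 to 6.63. Samd4 was looked for among the genes within 20 places of Gmfb after the levels had been seen, and its brightest probe set, 1424594_at, did not show them.

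**Figure D4:**
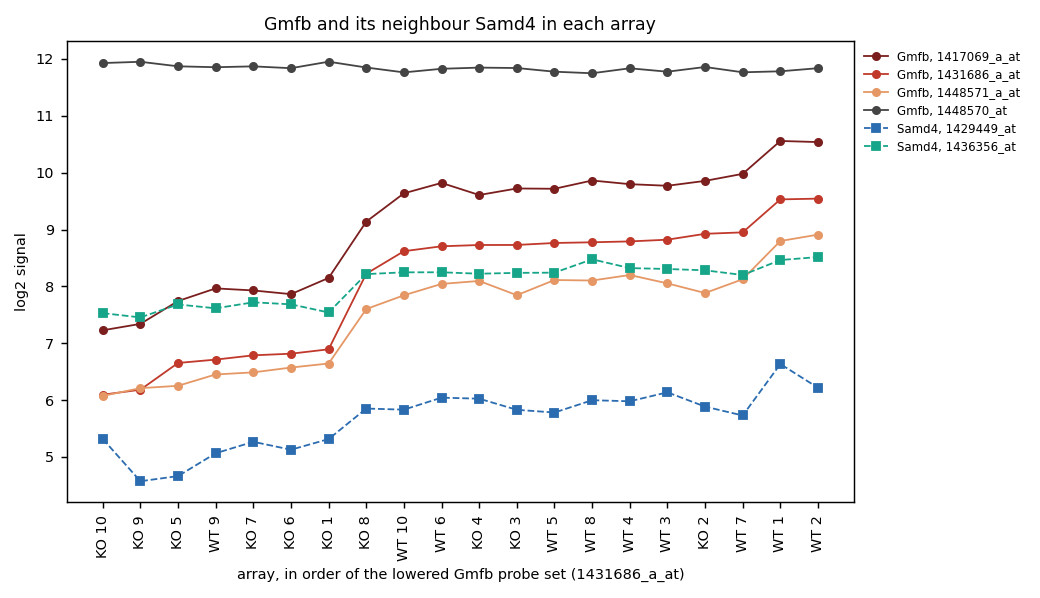
Log2 signal (y axis) of 4 Gmfb probe sets (solid lines) and 2 probe sets of the neighbouring gene Samd4 (dashed) in each array (x axis), in the order of Gmfb 1431686_a_at. The step between the 7 lowest arrays and the rest appears at 3 Gmfb and both Samd4 probe sets. Gmfb 1448570_at lacks it, with 11.84 to 11.95 in the 7 arrays and 11.75 to 11.86 in the rest.

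The array holds probe sets for the 3′ and the 5′ end of actin and Gapdh, and their difference rises when less of the 5′ ends has been copied or kept. This control signal was 0.191 ± 0.031 (SD, n = 10; 0.154 to 0.233) in WT and 0.216 ± 0.030 (SD, n = 10; 0.181 to 0.262) in HDAC4 KO arrays, and the 2 groups overlapped (two-sided permutation test, p = 0.0823). The 3 HDAC4 KO arrays lowest at the lowered probe sets, replicates 8, 9 and 10, had 0.240, 0.239 and 0.262. HDAC4 KO replicate 3 had 0.254, and its mean over the lowered probe sets, 7.59, was above the mean of its genotype. WT replicates 9 and 10, the lowest WT arrays there, had 0.201 and 0.208, in the middle of the WT range.

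Within genotype the lowered probe sets had steep negative slopes on the control signal, none of which passed the adjusted threshold. With genotype in the limma fit, all 9 were negative, between −10.04 and −4.01 log2 units per unit of control signal, with a median of −6.35. The comparison probe sets had slopes of −0.54 to 1.42, with a median of 0.36, and the middle 50% of all probe sets lay between −0.64 and 0.64. These slopes are not scaled to the SD within genotype, whose median was 0.417 at the lowered and 0.0719 at the comparison probe sets. How much of the steepness follows from that spread was not tested. The smallest adjusted p was 0.592, for Pnmal2 1438363_at (slope −10.04, SE 2.56), and 0% of all probe sets passed. At an unadjusted p below 0.05, 8 of the 32 probe sets had a negative slope, 6 of them lowered and none a comparison probe set, where 3.48% of all probe sets did. That count was 3 without HDAC4 KO replicate 10, which also had the highest control signal, and 2 without the 3 arrays at odds with their labelled sex. With the replicate number as a block it was 1, and 7 of the 9 lowered slopes were negative. The sign of the slope was not used in choosing the genes, but the 9 lowered probe sets move together and so do not count as 9 separate results.

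The slopes were also fitted for each genotype. Fitted within WT all 9 slopes were negative and none had an unadjusted p below 0.05, and within HDAC4 KO all 9 were negative and 6 had one, while the difference of slopes between genotypes passed the adjusted threshold for no member. As correlations over 10 arrays, with Gmfb left out for its separate levels, the 8 lowered probe sets had a median r of −0.26 in WT and −0.67 in HDAC4 KO brains. The strongest was Pnmal2 in HDAC4 KO brains, with r = −0.82 (permutation p = 0.00554) and rho = −0.77 (permutation p = 0.0118), and r = −0.89 without the 2 farthest arrays. After adjustment over the 48 relations computed its permutation p was 0.189, and none of the 48 passed.

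With the control signal as a term in the fit, the HDAC4 KO minus WT differences of the lowered probe sets were smaller but kept their sign: −0.57 for Atrx, −0.86 for Golm2, −0.62 for Nedd4, −0.66 for Rlf, −0.65 for Pnmal2, −1.14 for Gmfb, −0.78 for Nhsl2, −0.62 for A830010M20Rik and −0.34 for Rab22a. None of the 32 probe sets was then called lower in limma's fit, beside 0.0444% of all probe sets, and 13 were lower at an unadjusted p below 0.05, beside 6.25% of all. The genes were chosen on the same contrast, so these counts are a description. The mean control signal was higher in the HDAC4 KO arrays, with overlapping groups, and its part in the result was not tested.

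**Figure D5:**
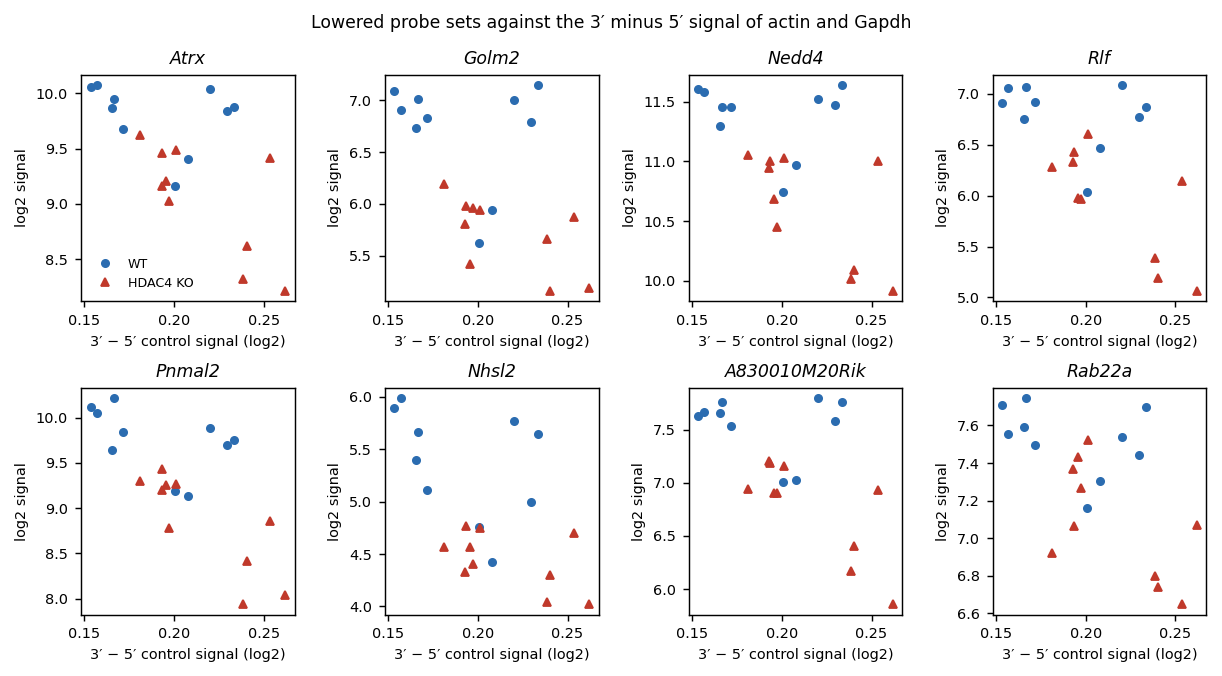
Log2 signal of the lowered probe set (y axis) against the 3′ minus 5′ control signal of actin and Gapdh (x axis, log2) in WT (blue circles) and HDAC4 KO arrays (red triangles), for the 8 genes other than Gmfb. HDAC4 KO replicates 8, 9 and 10, at 0.239 to 0.262, hold most of the lowest points, replicate 3, at 0.254, is lowest only for Rab22a, and the lowest WT points lie in the middle of the x axis.

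Sex was balanced over the genotypes by the labels and was not used to choose the genes. Male minus female differences at the lowered probe sets were −0.10 to 0.93, and no member was called in limma's fit with genotype as a term, nor was any of the 45037 probe sets. At an unadjusted p below 0.05 there were 3 members (3.37% of all probe sets), the 3 Gmfb probe sets with separate levels, higher in labelled males by 0.72 to 0.93. Neither of the X-linked genes stood out: the lowered probe sets differed by 0.10 for Atrx and 0.18 for Nhsl2. Without the 3 arrays at odds with their label again no member was called, while 29 probe sets over the whole array were.

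The genotype difference itself varied with labelled sex at no member after adjustment. The interaction had an unadjusted p below 0.05 at 2 of 32 probe sets, beside 5.35% of all. At Rab22a 1424504_at, which had the smallest p of the 32, the HDAC4 KO minus WT difference was −0.72 in labelled males and −0.15 in labelled females (adjusted p = 0.915 from limma). For Gmfb 1431686_a_at it was −0.77 in labelled males and −1.86 in labelled females (adjusted p = 0.920 from limma).

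Paralogues and partners of the members other than Rlf and A830010M20Rik, for which no list was made, were mostly level. They were taken from 7 lists not chosen for how they moved, and each gene was judged at its brightest probe set. Judged likewise, the 9 members differed by only −0.03 to 0.08, so the lists give no contrast with their lowered probe sets. Of 76 measured genes, 1 was lower and none higher, beside 0.517% lower and 1.45% higher of all genes, or 1.96% either way. At an unadjusted p below 0.05, 6 (7.89%) were lower and 11 (14.5%) higher, beside 6.19% and 12.8% of all genes. Their median difference was 0.02 on the log2 scale, with 0.01 over all genes.

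The gene that was lower was Pnmal1, a close relative of Pnmal2 in the PNMA family, with mean signals of 6.09 ± 0.10 in WT and 5.87 ± 0.16 in HDAC4 KO brains (SD, n = 10). Its difference was −0.22 (SE 0.06, adjusted p = 0.0490 from limma). The call sat at the threshold, and in 15 of the 20 fits that left out 1 array no related gene was called. The other 6 measured members of the family, among them Pnma2 (−0.20, SE 0.10) and Zcchc12 (−0.07, SE 0.03), did not pass.

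Among 13 partners of ATRX none passed. Smarca5, a chromatin remodeller of the ISWI family, had −0.15 (SE 0.05, adjusted p = 0.0775 from limma). Daxx, the partner of ATRX in placing H3.3, had 0.12 (SE 0.04, adjusted p = 0.0797 from limma), and Chd4 had 0.09 (SE 0.03). The median of this list was 0.00.

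Nor did any of 14 ligases and adaptors of the NEDD4 family pass at the brightest probe set, where the median was 0.04 and Arrdc4 had the smallest p, with a difference of 0.13 (SE 0.05). At dimmer probe sets of the family, Arrdc4 (0.30) and Nedd4l (0.19) were called higher and Hecw1 (−0.29) and Smurf2 (−0.19) lower. Of all probe sets 2.06% were called either way, so nothing is read from calls at dimmer ones. None of the 12 Golgi proteins passed at the brightest probe set, with a median of 0.03 and −0.06 (SE 0.03) for Golm1, a relative of Golm2. Gcc2 (−0.63, SE 0.11) and Golga1 (−0.29, SE 0.07) were called lower at a dimmer one. The ATRX partners, the PNMA family and the early endosome list held no call at a dimmer probe set.

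The actin-linked lists held no call at any probe set: 7 proteins of the ADF/cofilin family had a median of −0.01, among them Cfl1 with 0.05 (SE 0.03) and Dbn1 with −0.05 (SE 0.03). The 9 measured genes of the NHS family and the WAVE complex, which drives branched actin growth, had a median of 0.04, with Cyfip2 at 0.11 (SE 0.03, adjusted p = 0.105 from limma). For 14 Rabs and effectors of early endosomes the median was 0.03, with −0.11 (SE 0.04) for the Rab5 effector Zfyve20 and 0.11 (SE 0.05) for Rab4a, and none was called.

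Among the 9010 genes with several probe sets, 328 had a probe set called lower, and 324 of these also had one that was not called. As 2.06% of all probe sets were called either way, an uncalled probe set beside a called one is the usual case, and nothing is read from that count. In 271 of the 324 (83.6%) the lowered probe set had a lower mean signal than the brightest uncalled one, and in 267 it had the larger SD within genotype. By size of the lowered difference among the 324, Golm2, Nhsl2, Pnmal2 and Rlf ranked 1 to 4, A830010M20Rik, Nedd4 and Atrx 6 to 8, and Rab22a 78. Gmfb, with no called probe set, is not among them. Ranks at the top follow from how the genes were chosen.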

How the data were processed

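RNA of 10 WT and 10 HDAC4 KO brains was measured on 20 arrays. The authors labelled 200 ng of total RNA, excluded chips by their normalized unscaled standard error, and deposited log2 signals, 1 per probe set and array. The sources used here do not say how probes were summarized and normalized. The 64 control probe sets among 45101 stayed out of the tests, which ran on 45037. The platform annotation gives 34945 of them 1 gene symbol, 932 several and 9160 none. RefSeq (GRCm38.p6) served for names and gene order only.

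The members and gene lists were chosen with earlier results of these data known. Genotype, the slope on the control signal, labelled sex and their interactions were fitted in limma 3.58.1 (lmFit, eBayes) under R 4.3.3, with Benjamini-Hochberg adjustment over all probe sets and a threshold of 0.05. The methods name a 2-tailed t-test, run as an alternative. The named genes are the 9 members, up to 3 genes of each list by p, the 5 most alike by correlation, and Hdac4, Xist and Kdm5d. Samd4, Pnmal1's relatives beyond these, the marker Ttr and genes called at dimmer probe sets were named after their values were seen. Permutation tests drew 100000 resamples. The fits were tested on simulated data. The number of arrays limits the precision. Alternatives changed one choice at a time: sex, control signal or replicate number as a term, dim probe sets left out, array weights, median centring, quantile normalization, a robust eBayes with trend, other control signals, the mean of a gene's probe sets, and arrays left out.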

Additional observations from a re-analysis of the deposited data

Results flagged for a closer look

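WT replicate 9 stood far below the other WT arrays at the lowered Gmfb probe set, with a log2 signal of 6.71, the nearest WT array being at 8.62. Of 36 groups of 10 arrays examined, the lowered and comparison probe sets of the 9 genes in each genotype, this was the 1 group with an isolated array, and chance isolates an array in about 1 in 20. The sex-linked signals of the same array went against its label. Why it stood apart was not tested.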

How the results depend on the processing

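The 9 lowered probe sets kept a negative difference under every alternative run. The count of member probe sets called lower, 9, was 14 with the replicate block, 0 with the control signal as a term and 3 without WT replicate 8 and HDAC4 KO replicate 10 together. Leaving out 1 array gave 6 (without WT replicate 2, 3, 4 or 5 or HDAC4 KO replicate 8) to 13 (without WT replicate 9 or HDAC4 KO replicate 2). Rab22a passed in 18 of 31 alternatives, Atrx in 24 and Gmfb in 5. Of the related genes, 1 was called in the reported fit. The count was 0 with the methods' t-test, labelled sex as a term, the replicate block, array weights, the control signal as a term, without the 3 arrays at odds with their labelled sex, and without WT replicate 8 and HDAC4 KO replicate 10. It was 2 with dim probe sets left out or trend and robust eBayes, 3 with the mean of a gene's probe sets, and 0 to 2 leaving out 1 array. The median correlation between lowered probe sets within genotype, 0.727, was 0.154 with the replicate block and 0.684 to 0.762 leaving out 1 array. Members called on the control signal or labelled sex stayed at 0 under every alternative run. Replicate numbers are shared by the genotypes but did not pair the arrays over all probe sets: 1 of 10 pairs correlated above 0.1, and 1 of 10 WT arrays correlated best with its own number. The causes were not tested. The alternatives for the correlation were chosen after seeing the data.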

Other observations

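At some lowered probe sets, arrays with the same replicate number deviated alike in the genotypes. The labels do not say what the numbers stand for. Across the 10 numbers the WT and HDAC4 KO signals correlated positively for 9 of 9 lowered probe sets, with a median r of 0.736, and for 9 of 9 comparison probe sets, with a median of 0.216. Atrx had r = 0.926 (permutation p = 0.00024) and rho = 0.855 (permutation p = 0.00261), and r = 0.876 without the 2 farthest numbers. Over 18 such relations, 4 lowered probe sets (Atrx, A830010M20Rik, Nhsl2 and Nedd4) and 1 comparison probe set (Rab22a) had a permutation p below 0.05 after adjustment. By rank correlation 2 lowered probe sets (Atrx and A830010M20Rik) and Rab22a's comparison probe set did. Without the 2 farthest numbers 6 of the 9 lowered and 5 of the 9 comparison probe sets stayed positive. Then r went from 0.739 to 0.263 for Nedd4, from 0.557 to −0.04 for Rlf and from 0.921 to 0.738 for A830010M20Rik. The 9 lowered probe sets move together and so do not count as 9 separate results.

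Among genes within 20 places of a member in RefSeq order, Rfx7, which lies next to Nedd4, followed the lowered Nedd4 probe set, with a correlation of 0.922 over 20 arrays after subtracting each genotype's mean and a difference of −0.09 between genotypes. Evi5 (0.835) and Mtf2 (0.813) lie 5 and 9 places from A830010M20Rik and followed its lowered probe set. Over all probe sets, Rfx7 ranked 40, Evi5 279 and Mtf2 387 by size of correlation with the member, so many probe sets elsewhere followed as closely. These 3 were picked as the most alike of 89 and 63 neighbouring probe sets, so no p is given.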
